A study of Homo sapiens with 4 samples.

Results

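CDK inhibitor genes encode the proteins that hold cyclin-dependent kinases, the engines of cell division, in check. Their mRNAs were examined in MDA-MB-231, a long-established human cell line from a triple-negative breast cancer. The cells were kept for 24 h with DMSO, the solvent control, or with 10 µM KH-3, a small molecule that inhibits the RNA-binding protein HuR, and mRNA libraries of 2 samples per condition were sequenced. The members were the 7 genes CDKN1A, CDKN1B, CDKN1C, CDKN2B, CDKN2C, CDKN2D and CDKN3, taken by gene symbol. Of these, 6 genes with 14 transcripts were listed, out of 15113 gene symbols and 43596 transcripts in the whole table, and CDKN2B was not listed.

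The value used for each transcript was the authors' mean normalized read count, a single mean that pools libraries. It carries no value for a single library or a single condition. The libraries that enter it are not stated, and the methods also name a 5 µM KH-3 group. A level given here is therefore one level for the treated and control cells together, and neither a difference between KH-3 and DMSO nor a spread between samples can be read from it. Library depth is unknown. Levels are mean normalized reads per kilobase of transcript, summed over the transcripts of a gene where a gene is named. The lowest mean normalized read count listed was 7.34 and the median was 50.8, and the median gene level was 108 reads per kilobase. Among markers of this mesenchymal-like line, the intermediate filament gene VIM stood at percentile 99.6 of gene levels and the epithelial adhesion gene EPCAM at percentile 32.4. KRT18, an epithelial keratin, was also high, at percentile 99.2.

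The family falls into groups by mechanism. CDKN1A (p21), CDKN1B (p27) and CDKN1C (p57) form the Cip/Kip group, which binds cyclin and kinase together and acts mainly on the cyclin E and cyclin A complexes of CDK2. CDKN2B (p15), CDKN2C (p18) and CDKN2D (p19) belong to the INK4 group, built of ankyrin repeats, which bind CDK4 and CDK6 and keep cyclin D away. CDKN3 is different in kind, being a phosphatase that removes the activating phosphate from CDK2 and CDK1. Both p21 and p27 are also known from studies of HuR, which binds AU-rich stretches of mRNA.

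The sequences that bear on these points are the AU-rich pentamers in the 3′UTRs and the DNA in front of a RefSeq start of CDKN1A. AU-rich elements are often recognised by the pentamer AUUUA and, more strictly, by the heptamer UAUUUAU. All 14 listed transcripts were found by identifier in GENCODE release 44 on hg38. Their 3′UTRs were searched on the transcript strand, where each heptamer also holds a pentamer. The windows below hold 25 bases, written 5′ to 3′ as DNA, with the pentamer in capitals. They are shown because the members differ from one another in them, not because they are particular to the family. Of 23640 listed protein-coding transcripts, 67.7% held the pentamer and 30.7% the heptamer. All 3 pentamers of CDKN1A, the only one of CDKN2C, and those that lie within a heptamer in CDKN1B, CDKN1C and CDKN2D are given.

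CDKN1A, chr6:36685900-36685924, plus strand: ttgtgttttaATTTAaacacctcct
CDKN1A, chr6:36685966-36685990, plus strand: cattagaattATTTAaacaaaaact
CDKN1A, chr6:36686038-36686062, plus strand: atgaaatactATTTAaagcctcctc
CDKN2C, chr1:50974422-50974446, plus strand: ttatgaatatATTTAagcaacatct
CDKN1B, chr12:12721535-12721559, plus strand: gataattgctATTTAtttttacaag
CDKN1B, chr12:12722128-12722152, plus strand: atactaacttATTTAtgttaaaaga
CDKN1C, chr11:2883533-2883557, minus strand: tatattttctATTTAtgtccaggcg
CDKN2D, chr19:10566525-10566549, minus strand: aatggattctATTTAttatgcttta

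CDKN2C, the INK4 gene for p18, had the highest level of the family, at 617 reads per kilobase. CDKN1A followed at 448, CDKN1B at 346 and CDKN2D at 289. The remaining pair lay far lower, CDKN1C at 51.4 and CDKN3 at 22.3. On this scale the first 4 genes stood each 1.20 to 1.38 times above the next, while a gap of 5.62 times separated CDKN2D from CDKN1C. These steps depend on the scale. Without division by length, CDKN1B was 2.43 times CDKN2D, and with only the highest transcript of each gene CDKN1B was 1.73 times CDKN1A, which then came after it. From CDKN2C down to CDKN3 the ratio was 27.7. The copy of the table used here may lack rows, and the CDKN3 level rests on 1 of 7 annotated coding transcripts, so its place and ratios hold for the listed transcript. Bulk RNA also cannot tell fewer cells with an mRNA from less of it per cell. No error can be attached to these ratios, so whether neighbours in this order differ beyond the spread of samples is not known.

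Against all genes, 4 of the 6 members lay above the median gene level and 2 below it. CDKN2C reached percentile 86.5, CDKN1A 81.6, CDKN1B 76.9 and CDKN2D 73.0. CDKN1C was at percentile 35.4 and CDKN3 at 21.9. None reached 797 reads per kilobase, the 90th percentile of gene levels. CDKN2C alone made up 34.8% of the summed level of the 6 genes and CDKN1A 25.3%, against 2.90% for CDKN1C and 1.26% for CDKN3.

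**Figure D1:**
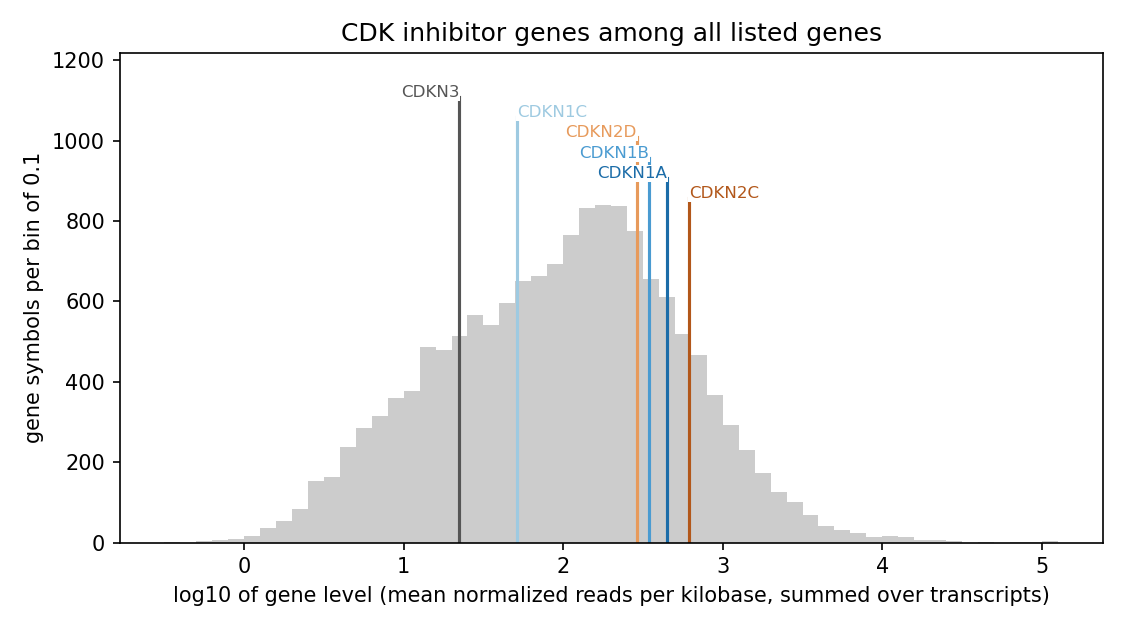
Number of listed gene symbols (y axis) by log10 of the gene level in mean normalized reads per kilobase (x axis, bins of 0.1); coloured lines mark the 6 CDK inhibitor genes. CDKN2C, CDKN1A, CDKN1B and CDKN2D sit close together on the right of the peak, and CDKN1C and CDKN3 on its left.

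CDKN1A encodes p21, the broad inhibitor that also binds the replication clamp PCNA. On hg38 the gene spans bases 36676460 to 36687337 of chromosome 6 (plus strand), and 4 of its transcripts were listed. CDKN1A-203 (ENST00000615513.4) had a mean normalized read count of 381 over 2102 bases, a level of 181 reads per kilobase. CDKN1A-202 (ENST00000448526.6) had 366 reads over 2104 bases, a level of 174. These transcripts were nearly equal and led the gene.

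CDKN1A-001 (ENST00000244741.9), with 172 reads, stood at 79.1 reads per kilobase. CDKN1A-201 (ENST00000405375.5), with 30.7 reads, stood at 13.5, below the median transcript level of 28.1. All 4 carry the same coding sequence of 495 bases, or 164 codons before the stop codon, so the choice among them does not alter the encoded p21. They differ at their 5′ ends, and in release 44 their 5′UTRs are 70, 72, 90 and 235 bases long in the order above.

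Those 5′ ends fall at 2 places that lie 2254 bases apart. In release 44, CDKN1A-203 starts at base 36676460 and CDKN1A-202 at base 36676490, while CDKN1A-001 starts at base 36678714 and CDKN1A-201 at base 36678710. CDKN1A-001 was counted on a form of 2180 bases, against 2117 in release 44, so whether the counted form has this start is not known. The upstream pair held 356 reads per kilobase, or 79.3% of the level of CDKN1A, and the downstream pair 92.7, or 20.7%. The upstream level was 3.84 times the downstream one. The downstream place was the only start of the gene in the RefSeq (GRCh38.p14) promoter windows used here. Whether RefSeq also holds the upstream start was not examined. This split rests on the 5′ ends, where the transcripts differ. Only 2.92% of the 50-base stretches of CDKN1A-203 and 3.02% of those of CDKN1A-202 occur in no other listed CDKN1A transcript. Stretches shared by the upstream pair but absent from the downstream pair were not counted, so how much sequence separates the pairs was not measured.

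The 250 bases of hg38 in front of the downstream start are given below, labelled RefSeq start, with motif matches in capitals. This start was chosen because only the lesser share of the level came from it. The motifs searched on both strands were GGGCGG, known as the GC box, the letters CCAAT, the TATA box as TATAAA, and the E-box as CACGTG.

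CDKN1A, RefSeq start, chr6:36678464-36678713, plus strand: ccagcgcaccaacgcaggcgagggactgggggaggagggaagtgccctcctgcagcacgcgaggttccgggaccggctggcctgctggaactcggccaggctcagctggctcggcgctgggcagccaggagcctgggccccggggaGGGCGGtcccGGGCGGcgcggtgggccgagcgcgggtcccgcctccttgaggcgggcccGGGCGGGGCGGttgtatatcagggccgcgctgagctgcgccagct

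The window was rich in G and C, which made up 76.4% of it, against a median of 58.0% over 35116 RefSeq promoter windows of this length. It held 4 matches to GGGCGG, 2 of which overlap, and none to the other motifs. Over all RefSeq promoter windows, 42.6% held GGGCGG, 32.0% held CCAAT, 10.7% held TATAAA and 6.34% held CACGTG. These matches describe the letters and say nothing of binding.

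CDKN1B encodes p27, the inhibitor that accumulates in resting cells and is removed by the ubiquitin ligase subunit SKP2 as cells enter S phase. It lies on chromosome 12 from 12685498 to 12722369 on the plus strand. In contrast to CDKN1A, a single transcript carried the gene. CDKN1B-001 (ENST00000228872.8) had 833 mean normalized reads, the highest count of any member transcript, and a level of 313 reads per kilobase, 90.6% of the gene.

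The second CDKN1B transcript, CDKN1B-003 (ENST00000396340.1), had 29.3 reads and 32.7 reads per kilobase. Its coding sequence is another one, of 205 codons in place of 198, because its first exon is joined to a last coding exon further downstream. Its 3′UTR is also short, with 261 bases against 1342. The pair therefore differs both in the end of the protein and in the untranslated tail.

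CDKN1C encodes p57, the imprinted member of the Cip/Kip group that is best known from development. It lies on chromosome 11 from 2883213 to 2885775 on the minus strand. The level of its 3 transcripts was low. CDKN1C-002 (ENST00000380725.1) had 41.7 reads and 34.2 reads per kilobase. CDKN1C-006 (ENST00000430149.2) with 13.6 reads and CDKN1C-001 (ENST00000414822.7) with 17.6 reads stood at 8.63 and 8.57 reads per kilobase.

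The leading CDKN1C transcript is not the one that encodes full-length p57. In release 44, CDKN1C-001 and CDKN1C-006 share a coding sequence of 316 codons, and together they made up 33.5% of the level of the gene. The reads of CDKN1C-006 were counted on a form of 1570 bases, against 1930 in release 44. Whether the counted form holds the same coding sequence is not known. CDKN1C-002 made up 66.5% of the level, or 57.3% of the summed reads, and has 131 codons. Its start codon lies 11 codons further in, in the same frame, and it runs along the longer form for 255 bases. It then leaves out 532 bases of the first exon of CDKN1C-001. That number leaves a remainder of 1 when divided by 3, so the codons beyond the splice are read in another frame. All 3 transcripts had under 50 mean normalized reads, and 0 of the 50-base stretches of CDKN1C-006 were its own, so no stretch of that length sets it apart in release 44.

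CDKN2C encodes p18, an INK4 inhibitor of CDK4 and CDK6. It lies on chromosome 1 from 50960745 to 50974634 on the plus strand. CDKN2C-201 (ENST00000396148.1) had 692 mean normalized reads and 332 reads per kilobase, the highest level of any member transcript. CDKN2C-002 (ENST00000371761.3) had 348 reads and 286 reads per kilobase. Both encode the same 168 codons, and here too the levels were close, at 53.7% and 46.3% of the gene.

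The CDKN2C transcripts begin at different places. In release 44, CDKN2C-201 starts at base 50968706 with a 5′UTR of 1205 bases, and CDKN2C-002 at base 50970245 with one of 124 bases. The reads of CDKN2C-002 were counted on a form of 1220 bases, against 995 in release 44, and those of CDKN2C-201 on 2086, against 2076. Whether the counted forms have these starts and 5′UTRs is not known. Each start is also a RefSeq start of the gene. At a further RefSeq start, base 50960745, no listed transcript began. The 250 bases before the start of CDKN2C-201 held 5 matches to GGGCGG, and those before CDKN2C-002 held 1 match to GGGCGG, 1 to the E-box and 1 to CCAAT. The long 5′UTR gives CDKN2C-201 much sequence of its own, 58.9% of its 50-base stretches, against 11.8% in CDKN2C-002.

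CDKN2D encodes p19, the remaining INK4 inhibitor that was listed. It lies on chromosome 19 from 10566460 to 10569059 on the minus strand. CDKN2D-002 (ENST00000335766.2) had 181 mean normalized reads and 167 reads per kilobase, and CDKN2D-001 (ENST00000393599.2) had 174 reads and 123 reads per kilobase. Both encode the same 166 codons, and they made up 57.6% and 42.4% of the gene. Their 3′ ends differ, with a 3′UTR of 598 bases in CDKN2D-001 and of 457 bases in CDKN2D-002.

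CDKN3 had the lowest listed level of the family. Its gene lies on chromosome 14 from 54396849 to 54420218 on the plus strand and has 7 protein-coding transcripts in release 44, of which 1 was listed here. CDKN3-010 (ENST00000556102.6) had 20.9 mean normalized reads over 938 bases, a level of 22.3 reads per kilobase, and it encodes 203 codons. The level of the gene as a whole rests on this single transcript, and the other forms are not analysed here. By comparison, the table listed all 2 protein-coding transcripts of CDKN2D, 2 of 3 for CDKN2C, 4 of 5 for CDKN1A, 3 of 5 for CDKN1C and 2 of 4 for CDKN1B. CDKN2B, which encodes p15, lies on chromosome 9 from 22002903 to 22009305 on the minus strand and has no level here.

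**Figure D2:**
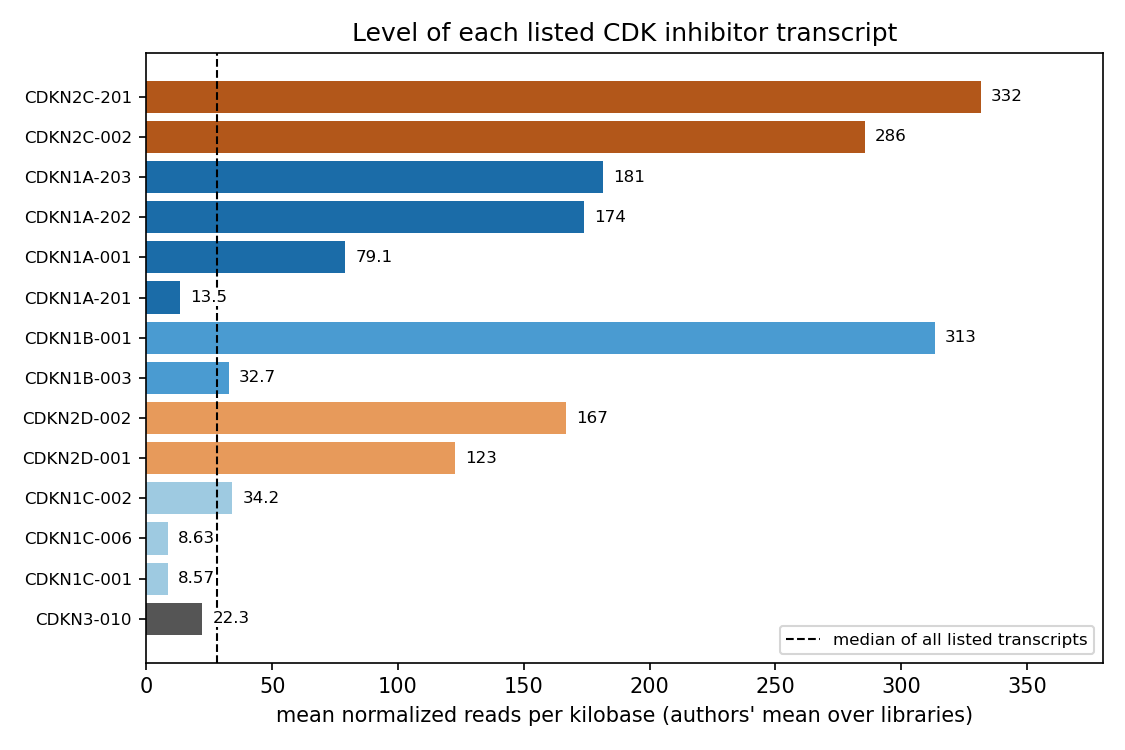
Level of each of the 14 listed transcripts in mean normalized reads per kilobase (x axis, the authors' mean over libraries, with no error), ordered by gene; the dashed line is the median of all listed transcripts, 28.1. CDKN1B rests on 1 transcript, while the levels of CDKN2C, CDKN2D and the leading pair of CDKN1A are shared between transcripts.

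How firmly a read can be given to one transcript depends on how much sequence the transcripts share. Each transcript of release 44 was cut into stretches of 50 bases, and those found in no other listed transcript of the same gene were counted as its own. In CDKN1A these made up 2.22% of CDKN1A-001 and 8.57% of CDKN1A-201, besides the values of the upstream pair above. CDKN1B-001 had 66.0% of its own and CDKN1B-003 5.42%. In CDKN2D the values were 10.8% for CDKN2D-002 and 32.8% for CDKN2D-001, and in CDKN1C 8.22% for CDKN1C-002 and 3.18% for CDKN1C-001. Transcripts that were not listed were left out of the comparison, so all these shares are upper limits. The sum over a gene does not depend on this division of reads in the way that single transcripts do.

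Between genes no sequence was shared at this length. On either strand, 0% of the 50-base stretches of all 14 transcripts occurred in a transcript of another gene, although antisense genes overlap the loci of CDKN1A, CDKN1B and CDKN2C. Release 44 is later than the annotation of the authors, release 24. Of the 14 transcripts, 6 had the same length in both, and 8 did not. Among the latter were CDKN1B-001 with 2657 bases as deposited and 2411 in release 44, and CDKN1C-006 with 1570 and 1930. CDKN2C-002 had 1220 and 995, and CDKN1A-001 had 2180 and 2117. Whether the counted forms of those 8 have the ends described here is not known. Levels use the deposited lengths, and coding and untranslated lengths are those of release 44.

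The AU-rich pentamer was common in the family. It was found in the 3′UTR of 13 of the 14 transcripts, all but CDKN3-010, whereas 67.7% of 23640 listed protein-coding transcripts held it. The heptamer was found in 5 of the 14, against 30.7% of those transcripts. The median 3′UTR of the latter was 976 bases, and those of the members ran from 260 to 1537 bases. Most transcripts of one gene overlap in their 3′UTRs, so these counts are no independent observations.

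The members differed in where the heptamer lay. CDKN1B-001 held 7 pentamers, more than any other member transcript, and 2 of them lay in heptamers. The short 3′UTR of CDKN1B-003 held 1 pentamer and no heptamer, so 90.6% of the level of CDKN1B came from the transcript with heptamers. All 3 transcripts of CDKN1C held 1 heptamer. In CDKN2D only CDKN2D-001 held it, near its 3′ end and beyond the end of CDKN2D-002, which put it in 42.4% of the level of the gene. The 4 transcripts of CDKN1A shared 3 pentamers at bases 110, 176 and 248 of the 3′UTR and held no heptamer, and both transcripts of CDKN2C shared 1 pentamer. A match describes the letters in these tails and not the binding of HuR, which was not measured in these libraries.

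**Figure D3:**
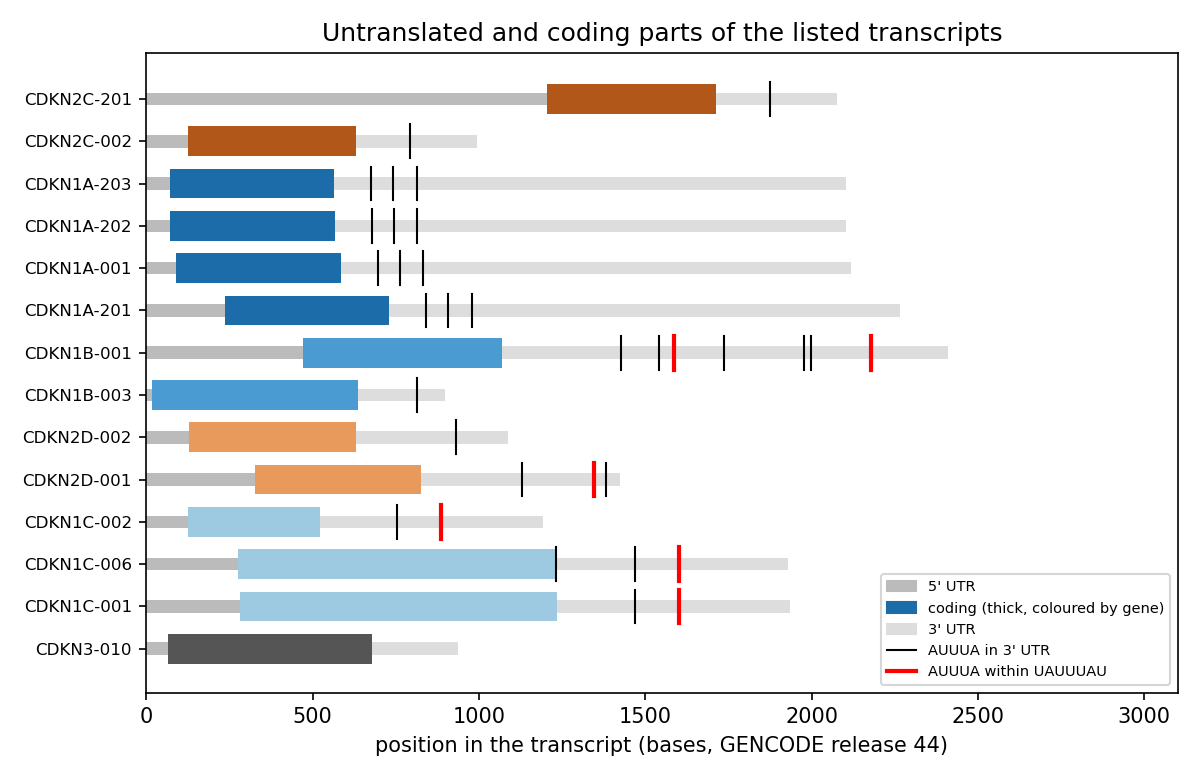
The 14 listed transcripts drawn to scale in bases from their 5′ end (x axis, GENCODE release 44), with the coding sequence as thick bars, untranslated parts as thin grey bars, and AUUUA pentamers of the 3′UTR as black lines, or red lines where they lie in UAUUUAU. The coding bars are equal in length within CDKN1A, CDKN2C and CDKN2D, while CDKN1C-002 has a shorter one, and red lines are found in CDKN1B-001, CDKN1C and CDKN2D-001.

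The kinases that these proteins act on were listed as well, with 21 of 23 genes of a list of partners and regulators. CDK1, the mitotic kinase, stood at 1628 reads per kilobase, CDK2 at 464, CDK4 at 383 and CDK6 at 161. CDKN1A thus lay beside CDK2, which was 1.03 times as high, and CDK2 was 1.34 times CDKN1B. CDKN2C was above both of its kinases, since CDK4 was at 0.620 and CDK6 at 0.261 of its level. CDK4 was 1.32 times CDKN2D and CDK6 was 0.556 times CDKN2D. CDK2 was 20.8 times and CDK1 73.1 times as high as the 1 listed transcript of CDKN3, and rows of other CDKN3 transcripts may be missing. The ratios to kinases were not recomputed without division by length or with only the highest transcript of each gene. An mRNA ratio is not a ratio of proteins.

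Among the cyclins, CCNB1 was highest at 2669 reads per kilobase and CCND3 lowest of the 7 listed at 53.4. CCND1, the main cyclin D of many breast cancer cells, was at 2443. The pocket proteins that the kinases phosphorylate ran from 172 for RBL1 to 484 for RB1. Of the regulators, PCNA was highest at 2460 and SKP2, which marks p27 for degradation, lowest at 187. CKS1B, the cofactor of SKP2, was at 1826, and ELAVL1, the gene of HuR, at 966. The median of the 21 genes was 464, against 318 for the 6 members.

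**Figure D4:**
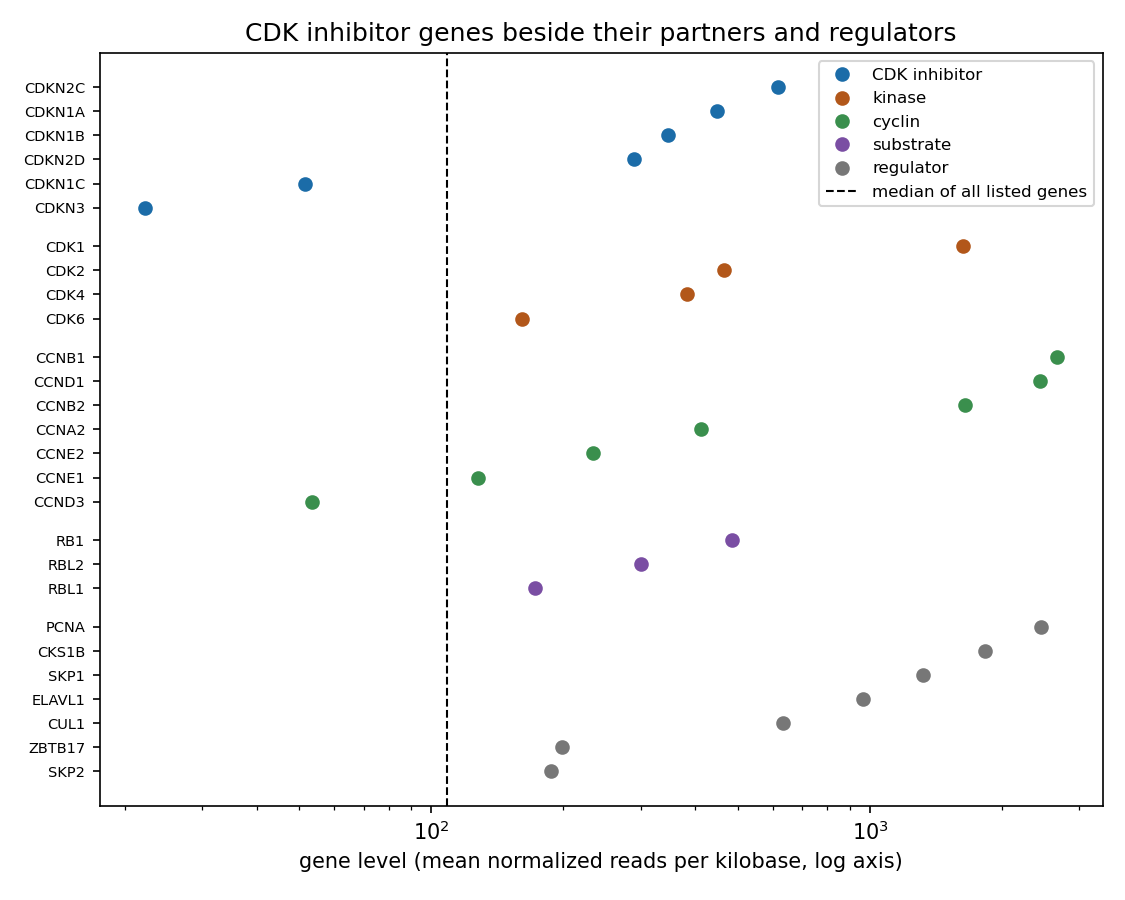
Gene level in mean normalized reads per kilobase (x axis, log scale) of the 6 listed CDK inhibitor genes and the 21 listed partners and regulators, grouped by role; the dashed line is the median of all listed genes, 108. CDKN1C and CDKN3 lie below the median, and CCND3 is the only partner that does.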

How the data were processed

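Per the paper's methods and the labels, mRNA libraries were made from MDA-MB-231 cultures after 24 h in DMSO or 10 µM KH-3, as 2 biological replicates each. Reads were aligned by STAR against GENCODE v24 transcripts, transcript counts came from eXpress, and conditions were compared in DESeq2 by the authors (versions not given in the sources used here; build hg38). The deposited table gives, per transcript, a mean normalized read count, which is a signal the authors averaged over libraries. It also gives their log2 fold change, p-value and q-value. These comparison columns were not used. Because no value per library was found, no test between KH-3 and DMSO was run, and the count model planned for that case was not used.

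Gene levels are sums over transcripts of mean normalized reads per kilobase of deposited length, with no filter, and percentiles are shares of gene symbols with a lower level. Sequences, coding parts and coordinates came from GENCODE release 44 on hg38, and promoter windows from RefSeq (GRCh38.p14), which covered 6 of the 7 members. A further sequence window of CDKN1A is not reported here. For values with no replicate, a level within 1.5 times, or a percentage within 10 points, was counted as not moved. Each member was described in full by rule, with up to 5 transcripts, and partners by range. The members and lists were chosen with earlier results of these data known. The level computation was run on simulated data of 2000 genes, built without noise by the same formula. That run checks the arithmetic only and not the assignment of reads to transcripts. Python 3.11.15, numpy 2.4.6, pandas 2.3.3 and matplotlib 3.10.9 were used.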

Additional observations from a re-analysis of the deposited data

How the results depend on the processing

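Of 61 values recomputed under other settings, 54 were not moved and 7 were. With only the highest transcript of each gene in place of the sum, the level fell to 332 reads per kilobase for CDKN2C, 181 for CDKN1A, 167 for CDKN2D and 34.2 for CDKN1C, and CDKN1B at 313 then stood above CDKN1A by 1.73 times. Without division by length, CDKN2D fell to percentile 55.3. Among genes with a protein-coding transcript, CDKN1C fell to percentile 25.1. As a share of summed reads, CDKN2C-201 held 66.5% of CDKN2C. The order of the 6 genes stayed as in the report when lengths were reduced by 200 bases or not used at all, although CDKN1B was 2.43 times CDKN2D without length, against 1.20 times with it. Levels and shares with protein-coding transcripts only were identical, because all 14 are of that type, so those 11 values could not move. Nor could the level of CDKN3 with only the highest transcript, since a single one was listed. With a minimum of 50 mean normalized reads, CDKN1C and CDKN3 had no transcript left and gave no value. All transcripts of CDKN2C and CDKN2D passed it, so their levels could not change. Settings added after the data were seen were stretches of 100 bases, which moved none of the 14 shares of own sequence by over 10 points, and other settings for the upstream share of CDKN1A, which gave 78.6% to 81.8%.

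No paired analysis was possible because the table has no value per library. For the same reason the comparison of KH-3 with DMSO and the omission of single libraries were not run. What depth limits is unknown; 6 of the 14 transcripts had under 50 mean normalized reads, and their levels are the least certain.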
